A study of Oryza sativa Indica Group with 4 samples.

Results

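MADS-box proteins are transcription factors that share a conserved DNA-binding domain and act as dimers or larger complexes on CArG-box sequences. In rice they include the factors that time the switch to flowering, those that give the organs of the spikelet their identity, and factors with roles in roots, tillering and stress. The genes described here are all those on the array whose gene record carries MADS followed by a number as a symbol or synonym, with or without the prefix Os. This gave 31 genes, read by 39 probe sets, among 17905 genes that had at least 1 probe set assigned to a single gene. Where a gene had several probe sets, the one with the highest mean signal stood for it. The record named here MADS18 also lists MADS2 and MADS28 as synonyms, MADS7 is also listed as MADS45, and MADS8 as MADS24.

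Signals came from seedlings of the Basmati rice cultivar B370 taken 15 days after germination under optimal growing conditions. The 2 mutant arrays hold RNA of a line of this cultivar labelled as a T-DNA insertional mutant named OsAPC6, after a subunit of the anaphase-promoting complex, and the 2 wild-type arrays hold RNA of the parent cultivar. Each array was made from 8 µg of total RNA, and the number of arrays limits the precision of every value. The labels do not state how many transformation events the line stands for, or which organs of the seedling were taken, and the OsAPC6 transcript was not analysed here. The question was whether MADS-box expression in the insertion line differed from that in its parent. All differences are mutant minus wild type on the scale of log2(signal + 16), which understates changes of dim probe sets, with the standard error (SE) and the adjusted p of limma fitted across 38130 probe sets. A gene is called at an adjusted p under 0.05.

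The seedling label was checked against marker genes. Of 6 green-leaf genes, 5 were above a signal of 100 in every array, among them the light-harvesting gene CAB2R with 53054.5 and 46568.1 in the mutant and 42637.4 and 43507.9 in wild type. None of 5 shoot-meristem genes exceeded 100 in every array, against 2 of 8 flower and anther genes, 2 of 5 root genes and 2 of 5 seed genes. The flower genes above 100 were MSP1, a receptor kinase gene, and GAMYB, a gibberellin-regulated factor gene, while the floral gene DL read 23.2 and 49.2 in the mutant and 41.6 and 44.6 in wild type. Summed over each list, the arrays of the genotypes overlapped for flower genes (811.4 to 969.2 in the mutant, 748.2 to 918.7 in wild type) and not for the others. The sums ran from 92706 to 105239.9 in the mutant and 85416.2 to 88838.9 in wild type for leaf genes. For shoot-meristem genes they ran from 98.5 to 110.7 in the mutant and 43.4 to 79 in wild type. These meristem genes read at most 49.2 in any array, and none of the 3 tested was called. Among them OSH43 had 29.9 and 49.2 in the mutant and 7.4 and 4.9 in wild type. Its other probe set was between 1.4 and 2.9, and the genotypes overlapped for the other meristem genes. Within the leaf list the members moved both ways: the Rubisco activase gene RCA and the chlorophyll synthesis gene PORA rose by 0.49 and 0.47, its relative PORB and the chlorophyll b synthesis gene CAO fell by 0.34 and 0.69, and 2 genes were not called. Root genes summed to between 1369.9 and 1374.1 in the mutant and 1811.4 and 2119.3 in wild type, most of it from the silicon channel gene LSI1, which fell by 0.74. The record matched as IRO2, also listed as IRO3, rose by 0.56, with 312.6 and 299.5 in the mutant and 189.2 and 214.9 in wild type, and the silicon exporter gene LSI2 was between 0.8 and 2.1. Seed genes summed to between 4380 and 4474.2 in the mutant and 3810.8 and 4168.6 in wild type. The 2 bright ones moved in opposite directions. GLB1 had 3368.2 and 3302.2 in the mutant and 2563.2 and 3022.2 in wild type. GLUA2 had 962.9 and 962 in the mutant and 1162.9 and 1075.2 in wild type. None of the 3 tested was called by its brightest probe set, and a second GLUA2 probe set fell by 0.98 (limma adjusted p = 0.0479). What part the make-up of the tissue had in the differences between genotypes was not tested.

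The family split into expressed genes and genes near the floor of the array. A signal above 100 in all 4 arrays was found for 10 of the 31 genes, or 32.3%, against 72.7% of the 17905 genes. A further gene, MADS4, lay on both sides of 100, and 20 genes were under 100 in every array. As a measure of the floor, 63 reporter probe sets, which read transgene sequences, gave signals between 0.3 and 78.5, with a median of 4.7. The 64th was left out because its signal differed between the genotypes. Its wild-type signals of 245.6 and 287.2 were also above that range. The higher of them exceeded every array of MADS57, MADS18 and MADS26. It also exceeded the lowest array of MADS55 (263.9) and of MADS56 (281), both mutant arrays. Set against the 63 alone, all 10 expressed genes were above 78.5 in every array. Of the others, 19 were under 78.5 in every array. The genes just above the threshold were MADS57 (lowest array 106.8), MADS18 (114.4) and MADS26 (172.9), and those just below it were MADS4 (lowest array 71.8), MADS1 (44.1) and MADS14 (37.9). The threshold was part of the choice of genes, so the split is a description.

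**Figure D1:**
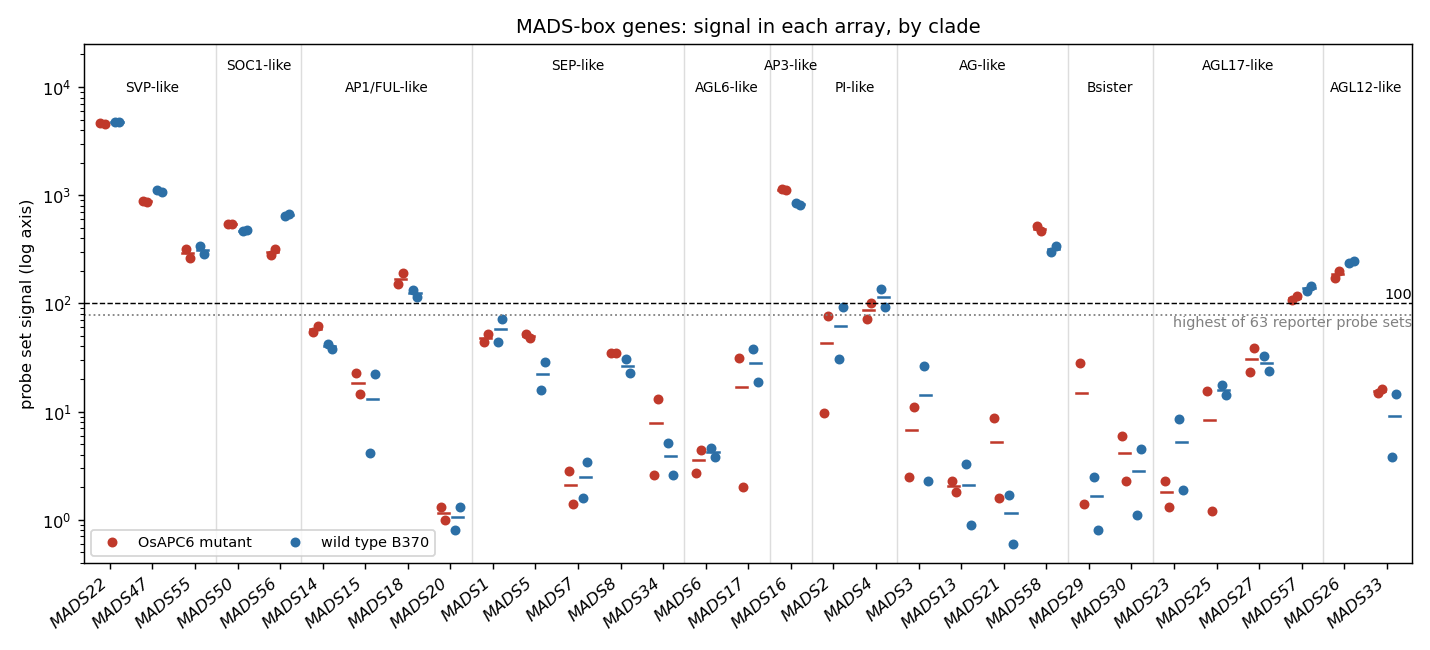
Signal of the counted probe set of each of the 31 MADS-box genes (log axis), grouped by clade, with mutant arrays in red left of wild-type arrays in blue. Dots are single arrays, short bars the mean of 2, the dashed line marks 100 and the dotted line 78.5, the highest signal of 63 reporter probe sets. All SVP-like and SOC1-like genes lie above 100 in every array, and no PI-like, SEP-like, AGL6-like or Bsister gene does.

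By clade, all 3 SVP-like genes and both SOC1-like genes, which belong to clades that act in vegetative growth and flowering time, were above 100 in every array. A single member each was above it among the 4 AP1/FUL-like genes (MADS18), the 4 AG-like genes (MADS58), the 4 AGL17-like genes (MADS57) and the 2 AGL12-like genes (MADS26), and so was the sole AP3-like gene, MADS16. None of the 5 SEP-like genes, the 2 AGL6-like genes and the 2 Bsister genes exceeded 100 in any array. These 3 clades act mainly in the flower and the developing seed.

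Between genotypes 4 genes were called, 2 higher and 2 lower in the mutant. All 4 were among the 10 expressed genes, and 6 of those 10 were not called. The background on which this count stands was high: 32.4% of the 19880 probe sets above 100 in every array were called (14% higher, 18.4% lower), as were 19.1% of all probe sets tested and 26.4% of genes at 1 probe set each (12.9% higher, 13.5% lower). With 4 of 10 expressed genes called, and 4 of 18 tested genes, the family's share lay near this background. The median difference of the 10 was -0.08, against -0.05 for all probe sets above 100. The median absolute difference was 0.33, against 0.23. The arrays of the genotypes did not overlap for 9 of the 10 genes, as for 70.3% of probe sets above 100. An exact permutation test of 2 against 2 arrays cannot give a two-sided p below 0.333, so the limma p-values rest on variances shared between probe sets of like signal. These p-values measure the spread between the arrays, which the series calls biological replications. Without that intensity trend limma called none of the probe sets (0 of 38130, although 9026 had an unadjusted p under 0.05) and 0 of the MADS-box genes, of which 5 had an unadjusted p under 0.05.

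**Figure D2:**
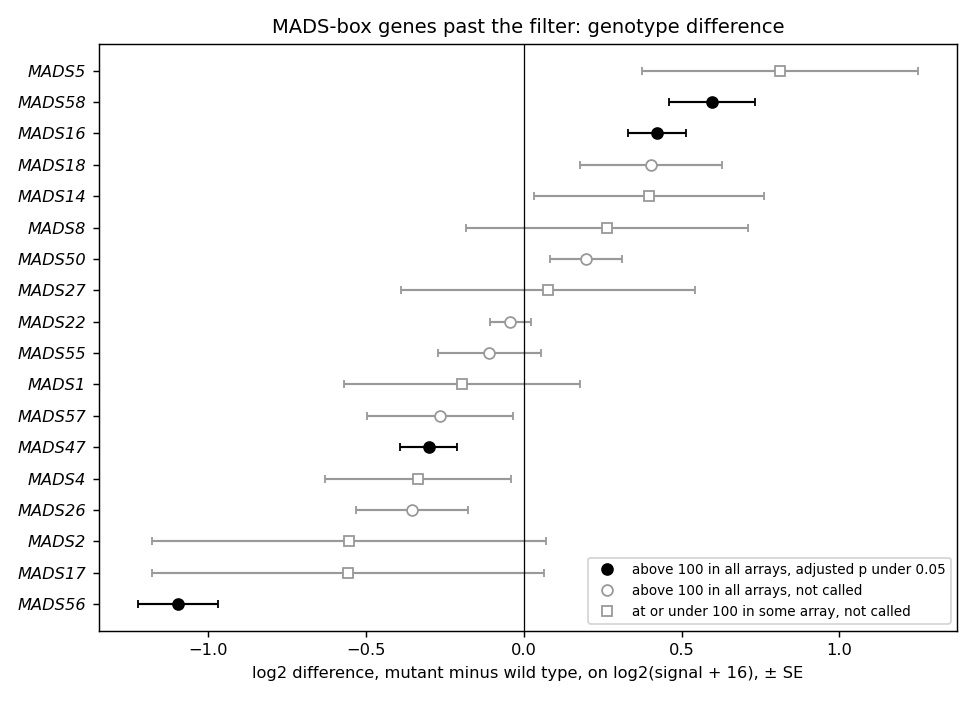
Log2 difference, mutant minus wild type, of the 18 MADS-box genes past the filter on dim probe sets, with bars of ± SE from limma. Filled circles are the 4 called genes, open circles the other expressed genes and open squares genes not above 100 in every array. MADS56 lies farthest from 0 at -1.10, and the bars of the dim genes are the widest.

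MADS56 and MADS50, the rice counterparts of the Arabidopsis flowering integrator SOC1, have opposite roles in rice: MADS50 promotes flowering and MADS56 delays it under long days. MADS56 read 281 and 315.3 in the mutant, against 636 and 674.4 in wild type. Both mutant arrays were far below both wild-type arrays, by more than either genotype's replicates differed. The means were 298.2 ± 24.3 in the mutant and 655.2 ± 27.2 in wild type (SD, n = 2 each), and MADS56 fell by 1.10 on the log2 scale (SE 0.13, limma adjusted p = 0.000216), a 2.14-fold difference. The call was lost without the intensity trend (limma adjusted p = 0.0661). In RNA of whole tissue, fewer cells of a type and less RNA per cell cannot be told apart.

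MADS50 had signals of 539.7 and 546.1 in the mutant and 467.5 and 475.8 in wild type. The mutant arrays were the higher ones without overlap, but the log2 difference of 0.20 (SE 0.11) was not called (limma adjusted p = 0.29). Within each array, the log2 ratio of the MADS50 signal to the MADS56 signal was 0.94 and 0.79 in the mutant and -0.44 and -0.50 in wild type. This ratio of 2 probe sets shows that they changed unequally and says nothing of which transcript was more abundant. It was looked at after the values of both genes had been seen.

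The SVP-like genes MADS22, MADS47 and MADS55 encode factors known to restrain brassinosteroid responses and to act in meristem identity. MADS47 read 888.2 and 869.3 in the mutant, against 1111.7 and 1062 in wild type. The mutant arrays were below both wild-type arrays. MADS47 fell by 0.30 (SE 0.09, limma adjusted p = 0.0424), a call close to the threshold that was lost in 8 of 13 alternative settings, where the adjusted p ran up to 0.217. Leaving out any single array was enough to lose it, with limma adjusted p-values from 0.0832 to 0.217.

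MADS22 had signals of 4624.1 and 4569.2 in the mutant and 4727.2 and 4746.5 in wild type. Its probe set ends in _s_at and so may read other transcripts as well. Although the arrays did not overlap, the difference was -0.04 (SE 0.06, limma adjusted p = 0.721). MADS55 had 316.3 and 263.9 in the mutant and 340.1 and 288.2 in wild type, so the genotypes overlapped, with a difference of -0.11 (SE 0.16, limma adjusted p = 0.718). Its sign turned without the first wild-type array (0.004) and without the second mutant array (0.01). Of this clade, MADS47 was thus the one gene called.

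Floral organ identity in the spikelet follows the ABC model, in which B-class factors specify lodicules and stamens and C-class factors specify stamens, carpels and the end of meristem growth. MADS16, the AP3-like B-class gene also known as SPW1, was expressed in these seedlings. Its signals were 1135.6 and 1108.9 in the mutant, against 852.2 and 814.3 in wild type. The replicates lay close together and the genotypes were well apart: the means were 1122 ± 18.9 and 833 ± 26.8 (SD, n = 2 each), and MADS16 rose by 0.42 (SE 0.09, limma adjusted p = 0.00874). The call was lost without the second wild-type array (limma adjusted p = 0.0606) and without the intensity trend (0.144).

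The PI-like genes MADS2 and MADS4 encode the partners with which MADS16 protein forms dimers. MADS4 had signals of 71.8 and 101.5 in the mutant and 136 and 91.9 in wild type, which overlapped (log2 difference -0.33, SE 0.29, limma adjusted p = 0.509). MADS2 had 9.6 and 76.3 in the mutant and 30.8 and 92.9 in wild type. The replicates of each genotype were far apart, and its difference of -0.55 had an SE of 0.62 (limma adjusted p = 0.619). Neither partner was called.

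MADS58, a C-class gene that acts in ending growth of the floral meristem, was the other gene called higher. It read 516.8 and 463.9 in the mutant, against 300 and 338.3 in wild type. The genotypes did not overlap, with means of 490.4 ± 37.4 and 319.2 ± 27.1 (SD, n = 2 each). MADS58 rose by 0.60 (SE 0.14, limma adjusted p = 0.0119). Without the first mutant array the limma adjusted p was 0.0676, without the first wild-type array 0.0726 and without the intensity trend 0.129. Alone among the 39 probe sets, that of MADS58 carries A1 in place of S1 in its identifier, and which strand it reads was not tested. The other AG-like genes, MADS3, which specifies stamens, MADS13, the ovule identity gene, and MADS21, gave signals between 0.6 and 26.1 over both genotypes and were too dim to be tested.

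MADS18 was the expressed member of the AP1/FUL-like clade, whose genes act downstream of florigen in the shoot apex. It read 149.7 and 189.9 in the mutant and 133.7 and 114.4 in wild type. The mutant arrays were the higher ones, but they differed from each other by 0.31 on the log2 scale, close to the genotype difference of 0.40 (SE 0.23, limma adjusted p = 0.27).

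MADS14, the gene of that clade most often used as a marker of the floral transition, had 54.8 and 61.3 in the mutant and 42.5 and 37.9 in wild type by its brightest probe set, which ends in _x_at and so may cross-hybridise. The difference of 0.40 (SE 0.36) was not called (limma adjusted p = 0.527). Its other 3 probe sets gave between 0.8 and 39.7, and they differed in direction: the means were 35.7 in the mutant and 19.6 in wild type for the second brightest, 3.2 and 18.1 for the next and 13.1 and 7.4 for the last. All 4 probe sets of MADS15 were between 0.7 and 22.5, and MADS20 was between 0.8 and 1.3. MADS14 neighbours the SEP-like gene MADS34 directly in the gene order of assembly ASM3414082v1, and MADS34, a regulator of panicle branching, gave signals between 2.6 and 13.2.

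**Figure D3:**
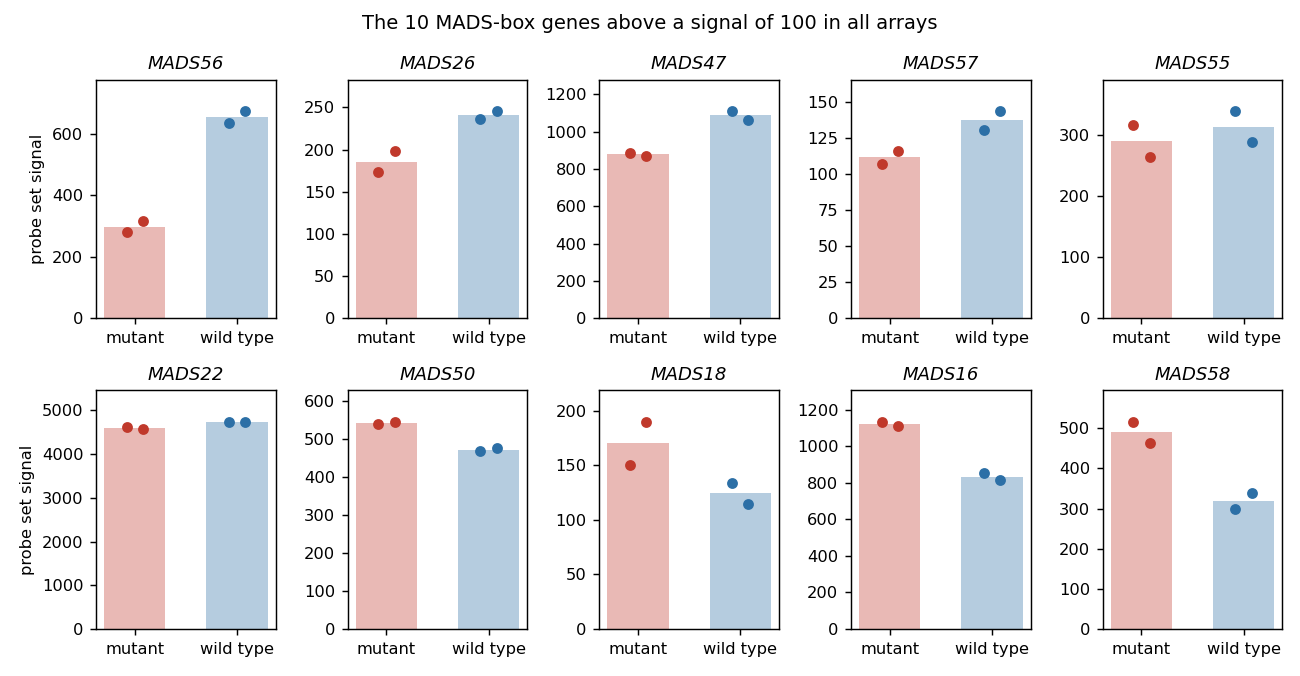
Signals of the 10 MADS-box genes above 100 in every array, on a linear axis from 0 for each gene. Bars are means of 2 arrays and dots single arrays, with the mutant left of wild type and the genes ordered by log2 difference from MADS56 to MADS58. For MADS55 the arrays of the genotypes overlap, and for the other 9 genes they do not.

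The remaining expressed genes belong to clades known from roots, tillering and stress. MADS26, an AGL12-like gene whose product limits drought tolerance and resistance to pathogens, had 172.9 and 197.7 in the mutant and 236.5 and 245.9 in wild type. The mutant arrays were below the wild-type arrays, with a difference of -0.36 (SE 0.18) that was not called (limma adjusted p = 0.211). MADS57, an AGL17-like gene whose product acts with TB1 on the strigolactone receptor gene D14, had 106.8 and 116.4 in the mutant and 130.7 and 144 in wild type. Its arrays did not overlap either, and its difference of -0.26 (SE 0.23) was not called (limma adjusted p = 0.503). D14 itself had 20245.3 and 18413.5 in the mutant and 17258.6 and 17939.9 in wild type (log2 difference 0.13, SE 0.07, limma adjusted p = 0.215).

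The other AGL17-like genes, known in rice from nitrate responses of the root, were dim. MADS27 was tested by both of its probe sets: the counted one had 23.2 and 38.5 in the mutant and 32.4 and 23.7 in wild type, and the other one had 30.3 and 39.3 in the mutant and 12.3 and 2.3 in wild type. The second one separated the genotypes at signals within the range of the reporter probe sets, and neither was called (limma adjusted p = 0.941 and 0.194). MADS23 and MADS25 were between 1.2 and 17.5, and the AGL12-like gene MADS33 was between 3.8 and 16. MADS33 and MADS13 are direct neighbours in the gene order of that assembly, and both were near the floor.

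Among the SEP-like genes, which encode the partners that join floral factors into complexes, MADS5 had the widest separation. It had 52.4 and 47.9 in the mutant and 15.8 and 28.5 in wild type, all within the range of the reporter probe sets, and its difference of 0.81 (SE 0.44) was not called (limma adjusted p = 0.249). MADS1, which acts in lemma and palea identity, had 44.1 and 51.6 in the mutant and 44.4 and 72.3 in wild type. MADS8 had 34.8 in both mutant arrays and 30.3 and 22.7 in wild type, and MADS7 was between 1.4 and 3.4. The AGL6-like gene MADS17 had 31.6 and 2 in the mutant and 37.7 and 18.6 in wild type, and MADS6 was between 2.7 and 4.6. The Bsister genes MADS29, which acts in the degradation of maternal tissue in the seed, and MADS30 were between 0.8 and 28.

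Of the 20 genes under 100 in every array, 7 passed the filter and 0 were called in limma, with 0 at an unadjusted p under 0.05. The other 13 were left out of the test as among the dimmest probe sets of the array. Replicate arrays of these 20 genes differed by a median of 0.21 on the log2 scale in the mutant and 0.26 in wild type, and by up to 1.85 and 1.22. For the 10 expressed genes the medians were 0.13 and 0.07, and the largest differences 0.31 and 0.23. For the 7 tested genes the SE ran from 0.36 to 0.62, about as large as the differences called for MADS16 and MADS47 or larger.

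Other genes of the pathways in which MADS-box factors act were taken from a fixed list of 86 names of flowering-time, inflorescence and strigolactone genes. The list was written without regard to how its genes moved, but with other results of these data known. Of 26 genes found on the array 21 were tested: 2 were called higher and 6 lower, with a median difference of -0.15. The share of called genes was 38.1%, against 26.4% of genes at 1 probe set each and 32.4% of probe sets above 100 in every array. Of the 26 genes, 15 were above 100 in every array, against 72.7% of the 17905 genes, so the list was not richer in bright genes than the array. Ehd4, a zinc-finger activator of the florigen pathway, had 2292 and 2471.8 in the mutant and 1775.7 and 1666.9 in wild type, and rose by 0.46 (SE 0.08, limma adjusted p = 0.00257). Hd16, a casein kinase gene that delays heading, rose by 0.40. No mutant array overlapped a wild-type array for either gene, as for 70.3% of probe sets above 100 in every array.

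Ehd3, a PHD-finger gene that promotes flowering, had 505.6 and 511.7 in the mutant and 802.6 and 852.7 in wild type, and fell by 0.68 (SE 0.11, limma adjusted p = 0.00128). Its other probe sets gave -0.45, which was also called (limma adjusted p = 0.0489), and -0.02, which was not (limma adjusted p = 0.983), with overlapping signals of 105.8 and 58.7 in the mutant and 71.8 and 90 in wild type. The phytochrome genes PHYC and PHYB, which encode red-light receptors, fell by 0.55 and 0.33, GF14c, a 14-3-3 gene whose product binds the florigen Hd3a, fell by 0.57, and the clock-linked gene GI fell by 0.31. The probe sets of another phytochrome gene, PHYA, disagreed: the counted one differed by 0.04 (limma adjusted p = 0.802) and the other fell by 0.36 (limma adjusted p = 0.0197). Those of the clock gene PRR37 did too, with -0.15 for the counted one (limma adjusted p = 0.182) and a rise of 1.03 for the other (limma adjusted p = 0.00618). FON1, a receptor kinase gene that limits the size of the floral meristem, had 845.8 and 759.6 in the mutant and 1084.8 and 1093.7 in wild type, and fell by 0.43 (SE 0.10, limma adjusted p = 0.0103). In all 6 genes called lower the mutant arrays were below both wild-type arrays. A lack of overlap in either direction was common, at 70.3% of probe sets above 100 in every array.

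The florigen gene Hd3a itself was near the floor, with 19.6 and 5.4 in the mutant and 12.7 and 4.1 in wild type, and was not tested. Hd1, a CONSTANS-like photoperiod gene, had 143.2 and 96 in the mutant and 123.3 and 94.8 in wild type, which overlapped (log2 difference 0.10, SE 0.27, limma adjusted p = 0.852). LFL1, a B3-domain gene placed downstream of MADS50 and MADS56, was between 3.3 and 8.2. Ehd1, Ghd7 and TB1 were not analysed here.

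**Figure D4:**
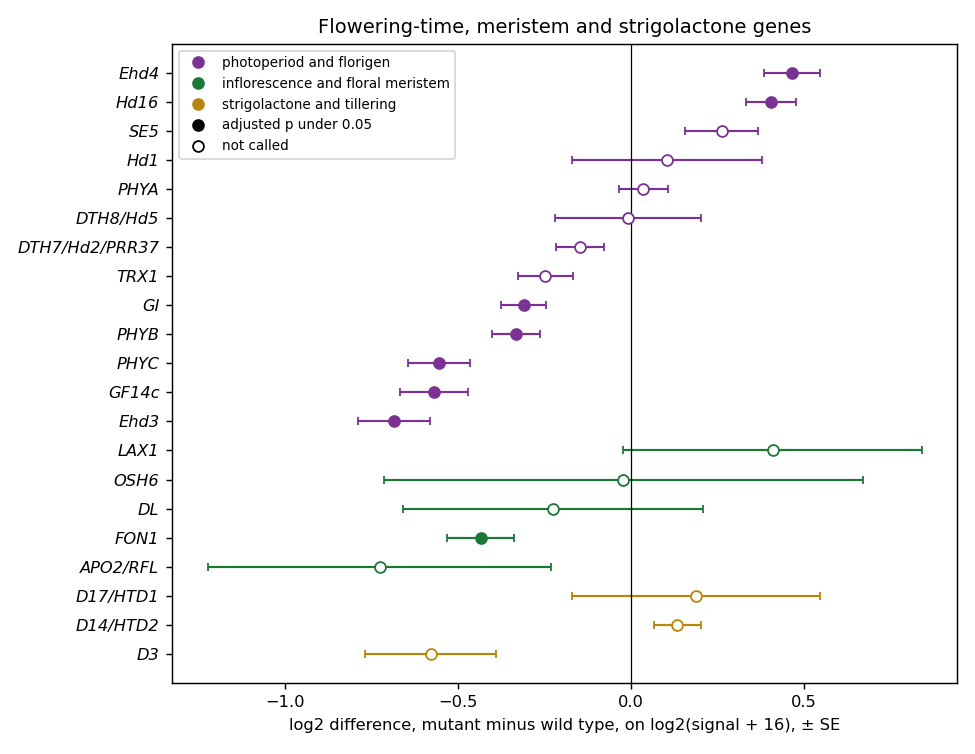
Log2 difference, mutant minus wild type, with bars of ± SE from limma, of the 21 tested flowering-time (purple), inflorescence (green) and strigolactone (ochre) genes. Filled circles are the 8 called genes. Ehd4 and Hd16 are the called genes right of 0, and FON1 and 5 flowering-time genes are the called genes left of it.

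Signal ratios between the ends of control transcripts, a common measure of RNA integrity, differed between genotypes for some genes and not for others. The signal at the 3′ end of the GAPDH control transcript, divided by that at its 5′ end, was 18.4 and 16.2 in the mutant arrays and 9.72 and 9.84 in the wild-type arrays. The same ratio for ubiquitin was 1.32 and 1.27 in the mutant and 1.04 and 1.03 in wild type. The genotypes overlapped for actin (12.2 and 16.6 in the mutant, 16.1 and 8.79 in wild type) and for cyclophilin (2.92 and 2.38 in the mutant, 2.27 and 2.86 in wild type). Of 19 control probe sets for rice housekeeping genes (actin, cyclophilin, GAPDH, ubiquitin), a GAPDH probe set at the 5′ end differed most, by -0.77. The fall of MADS56 was larger, and the changes of MADS58, MADS16 and MADS47, and all 8 called flowering-time and meristem genes, were smaller. A GAPDH probe set at the 3′ end differed by 0.05. In the middle of the transcript, an actin probe set differed by -0.55 and a GAPDH probe set by -0.50, both more than MADS16 and MADS47. The other middle probe sets differed by between -0.26 and -0.18. The size thus depended on the gene and on the part of the transcript that was read, and it sets no limit for other genes. The part of RNA integrity in these results was not tested. Each genotype's arrays may share a batch of plants or of labelling, and such a batch and the genotype cannot be told apart.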

How the data were processed

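The authors deposited 1 linear intensity per probe set and array. GCOS 1.2 produced it, per the submitters' processing notes, and its signal algorithm is not given in the sources used here. Trimmed means (2% at each end) of 500.1 in all 4 arrays show that the authors had scaled them before deposit. RNA was extracted with TRIzol and labelled with biotin, per the labels' protocols. All further steps ran in R 4.3.3 on log2(signal + 16). The 123 AFFX and 64 reporter control probe sets were left out, then the 33.3% of the rest with the lowest mean over all arrays, leaving 38130 of 57194. Log2 medians differed by 0.06 between arrays, under the tolerance of 0.1, so no normalization was added. Genotypes were compared with limma 3.58.1 (lmFit, eBayes with an intensity trend, Benjamini-Hochberg over all 38130), a fit checked on simulated data. Of 57381 probe sets, 22436 had 1 gene in the platform's annotation, 95 several and 34850 none listed. All 22436 matched RefSeq's gene table for the Japonica assembly ASM3414082v1, which gave symbols, synonyms and gene order; its coordinates were not used.

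The genes and lists were chosen with earlier results of these data known. All MADS-box genes are accounted for; those named with every array's signal were above 100 in all arrays, called, or next to that threshold, and others were added after their values were seen. Clades follow general knowledge of the rice family. From the list of 86 names, 4 matches through unrelated synonyms (a metallothionein as IDS1, a transporter as RCN1, and ASP1 and FC1) were taken out after differences were seen. Same-numbered arrays did not deviate together (correlation -0.004 across probe sets), so the replicate numbers were not taken as pairs. Alternatives covered the added constant, the filter, normalization, the variance prior, each array left out, the replicate block, the call rule and the choice of probe sets.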

Additional observations from a re-analysis of the deposited data

Results flagged for a closer look

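Among the control probe sets, RPTR-Os-K01193-1_at, a reporter, averaged 10188 in the mutant arrays (10386 and 9989) and 266.4 in the wild-type arrays (245.6 and 287.2), above the range of the other 63 reporter probe sets in both genotypes. It was picked out for this difference and was left out of the measure of the floor.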

How the results depend on the processing

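The variance prior and the call rule moved the MADS-box counts furthest. Without the intensity trend limma called 0 higher and 0 lower, against 2 and 2, with 4 and 1 at an unadjusted p under 0.05, and for the regulators 0 and 0 against 2 and 6; the cause was not tested. A fold of at least 2 in all 4 pairs of arrays on the same scale, a stricter rule by construction, took 0 and 0 MADS-box genes and 0 and 0 regulators. The lower count was 1 with a common 75th percentile, with quantile normalization and with no filter, each time through MADS47. Leaving out each array in turn, with the lone sample assumed to vary like the other genotype, gave 1 to 2 MADS-box genes higher and 1 lower, and 2 to 3 regulators higher and 3 to 7 lower, the 3 without the second wild-type array. MADS55, not called in any setting, ranged from -0.23 (without the first mutant array) to 0.014 (without the second), and was 0.004 without the first wild-type array. With the replicate block the MADS-box counts were 2 and 2 and those of the regulators 2 and 7. Keeping the reporter probe sets, or the 4 unrelated matches (3 regulators higher and 6 lower), which were added after seeing the data, left the counts within 1.5 times. MADS56 stayed called in 12 of 13 alternatives, MADS16 in 11, MADS58 in 10 and MADS47 in 5, none with a change of sign. A threshold of 50 or 200 in place of 100 left 11 and 7 MADS-box genes above it in every array.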
